A study of Homo sapiens with 6 samples.

Results

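The HOX cluster genes were the rows of the deposited gene table whose name was HOXA, HOXB, HOXC or HOXD followed by a number, with 1 HOXB gene left out by the rule, and they were 36 of the 38843 genes of the table. They lay in 4 clusters, with 11 genes in HOXA, 8 in HOXB, 9 in HOXC and 8 in HOXD. The study sequenced RNA from PC-3, an established androgen-independent line from a bone metastasis of a human prostate cancer, labelled as wild type. The cepharanthine group held 3 libraries of cells given 5 µM cepharanthine hydrochloride, a salt of a plant bisbenzylisoquinoline alkaloid, and taken on day 3. The control group held 3 libraries of PC-3 cells taken on day 3, and what these cells received in place of the drug is not stated in the labels. Both groups grew in DMEM with 10% fetal bovine serum. All libraries came from 1 cell line, and whether each library is a culture of its own is not in the labels. The p-values therefore rest on the variation among these libraries alone, and that may be technical.

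HOX genes encode homeodomain transcription factors that give cells their position along the body axis. Within a cluster the genes stand in an order that matches the order of their expression from head to tail, with low numbers anterior and high numbers posterior, and Polycomb and trithorax complexes maintain them silent or active. Their proteins bind DNA with cofactors of the PBX, MEIS and PKNOX families, and HOX genes of the posterior groups pattern the urogenital tract, from which the prostate arises.

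Total counts were 57971202, 53017816 and 68241156 in the cepharanthine libraries, against 55351436, 59241954 and 52774506 in the control libraries. All 6 genes of a PC-3 marker list were present, with a summed level of 2340 to 2550 CPM (counts scaled to the library's total) in cepharanthine libraries and 1870 to 1960 CPM in control libraries. Of the 6, VIM and KRT8 were higher and EPCAM and CD44 lower with cepharanthine. That is 66.7% called in the test described below, against 27.9% of all genes tested. VIM alone averaged 1190 CPM in cepharanthine libraries and 675 CPM in control libraries. Of 8 marker genes of fibroblasts, immune cells and endothelium in the table, 7 were tested, with 0 higher and 3 lower with cepharanthine. That is 42.9% called, against 27.9% of all genes tested. The summed level of the 8 was 147 to 165 CPM in cepharanthine libraries and 219 to 260 CPM in control libraries. The collagen gene COL3A1 averaged 12.9 CPM in cepharanthine libraries and 43.7 CPM in control libraries, COL1A1 averaged 57.9 CPM in cepharanthine libraries and 88.0 CPM in control libraries, and the endothelial gene PECAM1 averaged 21.4 CPM in cepharanthine libraries and 45.4 CPM in control libraries. The fibroblast gene DCN averaged 0.145 CPM in cepharanthine libraries and 0.0675 CPM in control libraries, and the leukocyte gene PTPRC averaged 0.312 CPM in cepharanthine libraries and 0.338 CPM in control libraries. CD68, another immune marker of the list, was well above these, with 65.1 CPM in cepharanthine libraries and 61.0 CPM in control libraries, and was not called. What part, if any, these marker levels have in the HOX values was not tested.

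Of the 36 genes, 30 had enough counts to be tested and 6 did not. In the edgeR quasi-likelihood test with Benjamini-Hochberg adjusted p over the 21965 tested genes, 2 HOX genes passed the threshold of 0.05 as higher with cepharanthine and 3 as lower. They were HOXA9 and HOXA11 on the higher side and HOXB5, HOXB6 and HOXC11 on the lower side. The 5 calls are 16.7% of the HOX genes tested, against 27.9% of all genes tested, of which 14.7% were higher and 13.2% lower. The median log2 fold change of the 30 HOX genes was -0.06, against -0.02 over all genes, with a range of -1.45 to 1.01. The groups of 3 did not overlap in CPM for 10 of the 30 HOX genes, against 43.2% of all genes. In RNA from whole cultures, fewer cells that express a gene and less of its RNA per cell cannot be told apart.

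The split of calls over all genes moved with the scaling. Of all calls, 52.6% were higher with the TMM factors used here, 41.8% with upper-quartile factors, 61.5% with library size alone and 62.8% with limma on FPKM, a level per transcript length and library. With limma on TPM, which is FPKM rescaled to the same sum in every library, it was 83.4%, and there the median log2 fold change over all genes was 0.26. The HOX calls were 2 higher and 4 lower with upper-quartile factors, 3 higher and 2 lower with library size alone, 3 higher and 2 lower with limma on FPKM, and 4 higher (HOXA9, HOXA11, HOXB9 and HOXD8) and 0 lower with TPM. These limma fits took genes with a mean of at least 1 FPKM, 19 of them HOX genes, and HOXC11 was not among them. Over the 13451 genes tested there, 3208 were higher and 1897 lower with FPKM, and 4931 were higher and 983 lower with TPM. Relative to that TPM median, HOXA9 was at 0.33, HOXA11 at 0.34, HOXB5 at -0.53 and HOXB6 at -0.65 on the log2 scale, so their order around the median of all genes was kept.

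The promoters of 4 neighbours at the posterior end of HOXA are shown because 2 of them, HOXA9 and HOXA11, were higher with cepharanthine, while HOXA10 between them and HOXA13 beside them did not pass the test. The sequences are those of RefSeq on GRCh38.p14, 250 bases before to 50 bases after an annotated start, all on the minus strand and written 5′ to 3′, for HOXA10 at the start where its row begins. Capitals mark matches, on either strand, to TATAAA (the TATA box), CCAAT (the CCAAT box), CACGTG (a form of the E-box) or TGATTNAT (a PBX and HOX pair site). These 4 motifs were chosen after the values were seen, and other forms of the E-box were not searched.
HOXA9, chr7:27165488-27165787: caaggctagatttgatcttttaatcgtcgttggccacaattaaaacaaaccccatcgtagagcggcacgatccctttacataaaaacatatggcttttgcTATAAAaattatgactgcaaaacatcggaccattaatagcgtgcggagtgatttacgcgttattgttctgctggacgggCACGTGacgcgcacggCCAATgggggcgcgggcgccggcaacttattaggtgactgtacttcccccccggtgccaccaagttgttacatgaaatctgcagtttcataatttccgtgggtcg
HOXA10, chr7:27174271-27174570: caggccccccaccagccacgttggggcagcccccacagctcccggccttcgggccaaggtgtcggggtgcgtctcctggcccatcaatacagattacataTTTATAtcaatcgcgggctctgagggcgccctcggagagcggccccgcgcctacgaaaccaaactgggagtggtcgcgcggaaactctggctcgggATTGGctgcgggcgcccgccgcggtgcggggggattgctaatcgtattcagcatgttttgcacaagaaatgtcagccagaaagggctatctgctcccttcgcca
HOXA11, chr7:27185183-27185482: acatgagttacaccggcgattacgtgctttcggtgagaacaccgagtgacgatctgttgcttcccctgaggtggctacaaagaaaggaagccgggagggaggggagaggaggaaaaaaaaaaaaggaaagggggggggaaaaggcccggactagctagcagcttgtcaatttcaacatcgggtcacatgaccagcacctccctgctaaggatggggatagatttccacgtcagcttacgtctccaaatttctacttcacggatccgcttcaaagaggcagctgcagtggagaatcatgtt
HOXA13, chr7:27200042-27200341: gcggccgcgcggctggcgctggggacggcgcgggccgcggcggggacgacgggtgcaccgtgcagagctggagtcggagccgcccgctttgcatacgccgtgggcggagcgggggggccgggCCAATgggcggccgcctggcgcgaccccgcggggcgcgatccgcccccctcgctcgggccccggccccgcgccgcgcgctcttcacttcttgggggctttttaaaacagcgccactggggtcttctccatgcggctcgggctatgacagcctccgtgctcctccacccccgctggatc
The HOXA9 window held 1 TATAAA, 1 CCAAT and 1 CACGTG match, HOXA10 held TATAAA and CCAAT on the other strand, HOXA13 held 1 CCAAT and HOXA11 held none of the 4. Among 35116 RefSeq promoter windows of this length, 11.5% held TATAAA, 34.6% CCAAT, 7.26% CACGTG and 2.82% TGATTNAT. The windows held 22 CG pairs for HOXA9, 25 for HOXA10, 13 for HOXA11 and 44 for HOXA13, against a median of 14 over all windows. A match describes letters in the window and is not a binding site. The table's HOXA9 row ends at position 27169737, upstream of the RefSeq start at 27165537, so its counts may hold transcripts that start elsewhere, and 18 of the 36 genes had an entry in the promoter table.

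Per length, the 36 HOX genes were led by posterior HOXA genes, and the HOXB gene left out by the rule was not ranked. HOXA9 had the highest mean over the 6 libraries, 14.6 FPKM, which stood at percentile 93.4 of all genes with a mean above 0. The next 4 genes differed in order between the groups. In cepharanthine libraries they were HOXA11 with 8.14 ± 0.579 FPKM, HOXA13 with 7.13 ± 0.648, HOXB9 with 6.38 ± 0.703 and HOXB6 with 4.17 ± 0.705 (SD, n = 3). In control libraries they were HOXA13 with 7.60 ± 0.450 FPKM, HOXB6 with 6.32 ± 1.10, HOXA11 with 6.01 ± 0.372 and HOXB9 with 5.36 ± 0.863 (SD, n = 3), and several of these neighbours lie within each other's spread. In control cells, 18 of the 36 genes averaged 1 FPKM or more and 18 averaged less.

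**Figure D1:**
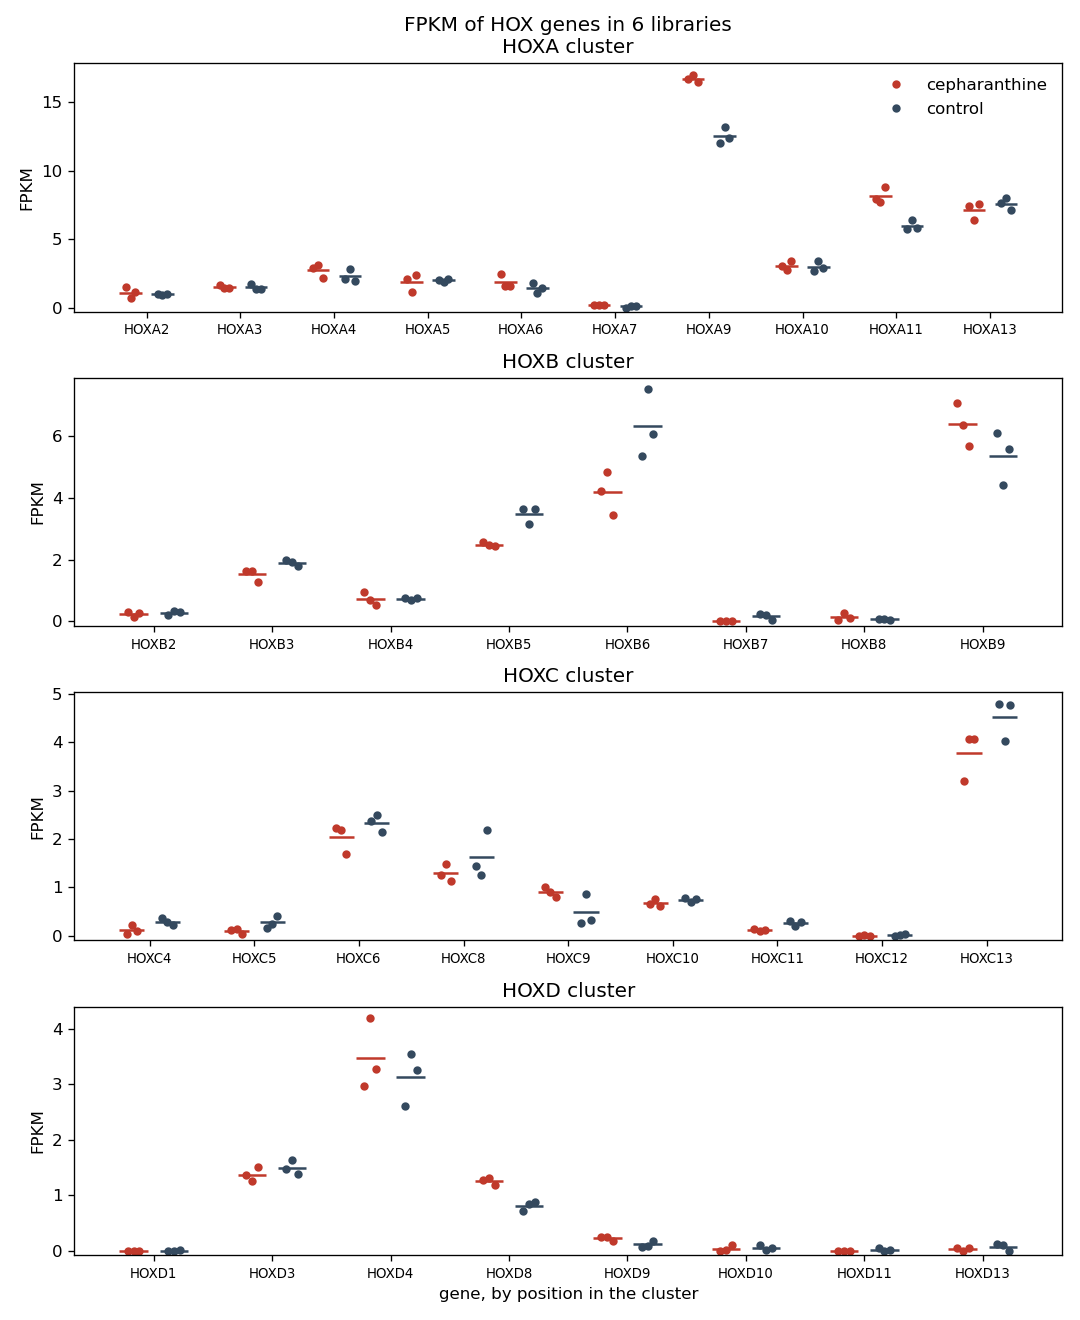
FPKM of HOX genes (vertical axis, linear, with a scale of its own in each panel) by cluster and position (horizontal axis), 1 point per library and a line at the mean of the 3 cepharanthine or 3 control libraries. HOXA9 averaged 16.7 FPKM in cepharanthine libraries and 12.5 FPKM in control libraries and stands above every other HOX gene shown, while most HOXD genes lie near 0.

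The HOXA cluster, on chromosome 7 up to position 27200091 in the table's GRCh38 coordinates, was the only cluster with calls on the higher side in the edgeR test with TMM factors. Its summed level was 166, 162 and 163 CPM in cepharanthine libraries, against 139, 147 and 139 CPM in control libraries, a ratio of 1.16 that became 1.10 with TMM-scaled library sizes. Under both scalings the 3 cepharanthine libraries lay above the 3 control libraries. HOXA9 alone gave 33.4% of the cluster's CPM. Nearly all of the rise in summed CPM lay in HOXA9 and HOXA11, the 2 genes called. HOXA9 averaged 58.5 CPM in cepharanthine libraries and 43.4 CPM in control libraries. HOXA11 had 24.0 to 26.3 CPM in cepharanthine libraries and 17.6 to 19.4 CPM in control libraries. HOXA13 did not rise, with 38.9 to 43.1 CPM in cepharanthine libraries and 41.8 to 45.8 CPM in control libraries. The ratio therefore does not show a rise across the cluster. Of its 11 genes, all tested, 2 were higher and 0 lower (18.2% called, against 27.9% of all genes tested). The median log2 fold change was 0.19. On the lower side 0 had an unadjusted edgeR p under 0.05 and 0 were called by DESeq2.

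HOXA9 is a posterior gene known for its part in leukaemia and in haematopoietic progenitors. It had 57.5, 61.9 and 56.0 CPM in cepharanthine libraries, against 41.5, 45.3 and 43.5 CPM in control libraries. Every cepharanthine library was above every control library. The log2 fold change was 0.36 ± 0.08 (SE), a fold of 1.29, with an edgeR adjusted p of 0.00605, and the call held in 17 of 17 alternative analyses, with log2 fold changes of 0.29 to 0.59. The row overlaps 6203 bases, on the same strand, of a row that overlaps both HOXA9 and HOXA10, AC004080 (ENSG00000257184), which had 0, 4 and 9 counts in cepharanthine libraries and 12, 8 and 11 in control libraries.

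HOXA11 is needed for the limbs, the kidney and the reproductive tract in mice. It had 24.0, 24.7 and 26.3 CPM in cepharanthine libraries, against 17.6, 19.4 and 18.0 CPM in control libraries, again without overlap between the groups. Its log2 fold change was 0.38 ± 0.09 (SE), a fold of 1.30, with an edgeR adjusted p of 0.0135, and it was called in 17 of 17 alternatives, with log2 fold changes of 0.31 to 0.60. HOXA10, which lies between both genes and is known for uterine development and implantation, had 13.1, 12.4 and 14.4 CPM in cepharanthine libraries and 11.4, 14.5 and 12.6 CPM in control libraries. These groups overlapped, and its log2 fold change was -0.01 ± 0.13 (SE). HOXA13, the last gene of the cluster and a regulator of distal limb and genitourinary development, had 42.7, 38.9 and 43.1 CPM in cepharanthine libraries and 44.4, 45.8 and 41.8 CPM in control libraries, which also overlapped. Its log2 fold change was -0.15 ± 0.08 (SE) with an edgeR adjusted p of 0.194.

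HOXA2 to HOXA7 did not pass the test. HOXA2 to HOXA6 had log2 fold changes from -0.15 ± 0.25 (SE) for HOXA5 to 0.30 ± 0.28 for HOXA6, with HOXA2 at 0.08 ± 0.28, HOXA3 at -0.04 ± 0.16 and HOXA4 at 0.20 ± 0.22. Their groups overlapped in every case. HOXA7 had 31, 34 and 35 counts in cepharanthine libraries and 5, 30 and 23 in control libraries, and control library 1 was far below the others, although the groups did not overlap in CPM. HOXA7 was at a log2 fold change of 0.65 ± 0.63 (SE) with an edgeR adjusted p of 0.497.

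The HOXB cluster, taken without the gene left out by the rule, lay on chromosome 17 from 48540894 to 48633572. It had 2 genes called lower and 0 called higher among 7 tested (28.6% called, against 27.9% of all genes tested). The median log2 fold change was -0.28. On the higher side 0 had an unadjusted edgeR p under 0.05 and 0 were called by DESeq2. Its summed level was 56.4, 58.5 and 45.2 CPM in cepharanthine libraries, against 62.4, 61.4 and 62.0 CPM in control libraries, a ratio of 0.862. All 3 cepharanthine libraries lay below the control libraries, and cepharanthine library 3 was the lowest.

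HOXB6 and HOXB5 are neighbouring central genes, and HOXB5 is known for its part in the enteric nervous system. HOXB6 had 12.6, 15.1 and 10.1 CPM in cepharanthine libraries, against 16.0, 22.1 and 18.4 CPM in control libraries, without overlap. HOXB6 was at a log2 fold change of -0.64 ± 0.17 (SE), a fold of 0.640, with an edgeR adjusted p of 0.0186. The call was lost without cepharanthine library 1 or 3 or control library 2 or 3, with log2 fold changes of -0.50 to -0.64 and adjusted p of 0.0558 to 0.0656. HOXB5 had 5.95, 6.02 and 5.61 CPM in cepharanthine libraries, against 8.49, 7.24 and 8.58 CPM in control libraries, also without overlap. HOXB5 was at a log2 fold change of -0.54 ± 0.16 (SE), a fold of 0.690, with an edgeR adjusted p of 0.0282. That call was lost without any 1 of the 3 cepharanthine libraries or without control library 1 or 3, with log2 fold changes of -0.48 to -0.56 and adjusted p of 0.0657 to 0.104. Both genes kept their negative sign in 17 of 17 alternatives.

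HOXB3, an anterior gene of hindbrain patterning, had 13.9, 14.7 and 10.8 CPM in cepharanthine libraries and 16.9, 16.1 and 15.5 CPM in control libraries. Its groups did not overlap, and its log2 fold change of -0.36 ± 0.14 (SE) had an edgeR adjusted p of 0.0847, with calls under DESeq2 and upper-quartile factors only. HOXB2 was at -0.28 ± 0.43 (SE) and HOXB4, a gene of haematopoietic stem cells, at -0.08 ± 0.29. HOXB9, a posterior gene, had 20.9, 19.7 and 16.5 CPM in cepharanthine libraries and 18.0, 12.9 and 16.7 CPM in control libraries. Its groups overlapped, with a log2 fold change of 0.19 ± 0.16 (SE) and an edgeR adjusted p of 0.425. HOXB8 rested on 6, 41 and 23 counts in cepharanthine libraries and 12, 11 and 9 in control libraries, and its log2 fold change of 1.01 ± 0.78 (SE), the highest of the 30, did not pass (edgeR adjusted p of 0.385).

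HOXB7 had 0, 0 and 0 counts in cepharanthine libraries, against 23, 23 and 6 in control libraries, and was left out by the filter on low counts. With 3 counts put in place of 0 over the cepharanthine group, it was 18.6-fold lower with cepharanthine relative to the groups' total counts. Without cepharanthine library 3 it was 11.5-fold lower. These values allow for counting error in the cepharanthine group only. They take the control sum of 52 counts as exact and leave out variation between libraries, so they are not bounds. In the alternative edgeR fit with no filter the adjusted p of HOXB7 was 0.0179. The HOXB7 row spans HOXB8 and HOXB9 on the same strand and shares 5203 bases with HOXB9, so how reads were given to these rows bears on all 3, and the labels do not state the counting rule.

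The HOXC cluster, on chromosome 12 from 53938831 to 54055327, had 1 gene called lower and 0 called higher among 8 tested. That is 12.5% called, against 27.9% of all genes tested. Of the 8 log2 fold changes, 7 were below 0, with a median of -0.36. On the higher side 0 had an unadjusted edgeR p under 0.05 and 0 were called by DESeq2. Its summed level was 25.5, 30.4 and 24.4 CPM in cepharanthine libraries and 31.8, 29.7 and 33.4 CPM in control libraries, so the groups overlapped, with a ratio of 0.847. HOXC11, a posterior gene, had 0.535, 0.415 and 0.454 CPM in cepharanthine libraries, from 31, 22 and 31 counts, against 1.17, 0.760 and 1.12 CPM in control libraries, from 65, 45 and 59 counts. The groups did not overlap. Its log2 fold change was -1.19 ± 0.39 (SE), a fold of 0.439, with an edgeR adjusted p of 0.0471, and it was called in 5 of 14 alternatives. The call was lost without any 1 of the 3 cepharanthine libraries or without control library 1 or 3, with log2 fold changes of -1.06 to -1.29 and adjusted p of 0.0753 to 0.133.

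The 4 central HOXC genes all had negative log2 fold changes, with a median of -0.87, and 0 of them were called by edgeR or DESeq2 or had an unadjusted edgeR p under 0.05. HOXC4 had 7, 40 and 20 counts in cepharanthine libraries and 64, 53 and 40 in control libraries, and its log2 fold change was -1.34 ± 0.61 (SE) with an edgeR adjusted p of 0.136. Without cepharanthine library 2, which was the highest of its group, the value was -2.23 with an adjusted p of 0.0255. HOXC5 had 15, 17 and 6 counts in cepharanthine libraries and 20, 30 and 46 in control libraries, and its log2 fold change was -1.45 ± 0.65 (SE) with an edgeR adjusted p of 0.132. Neither gene's groups overlapped in CPM. The RefSeq promoter windows of HOXC4 and HOXC5 are the same, at 54016638 to 54016937, and the HOXC5 row lies within the HOXC4 row over 2506 bases. HOXC6 was at -0.25 ± 0.16 (SE) and HOXC8 at -0.40 ± 0.26, both with overlapping groups.

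Among the other posterior HOXC genes, HOXC13, which acts in hair and nail formation and led the cluster per length with 4.16 FPKM, had 8.62, 11.5 and 10.8 CPM in cepharanthine libraries and 12.9, 10.7 and 13 CPM in control libraries. Its groups overlapped, with a log2 fold change of -0.32 ± 0.16 (SE) and an edgeR adjusted p of 0.175, and HOXC10 was at -0.21 ± 0.24. HOXC9, a gene of motor neuron identity in the thoracic cord, had 112, 97 and 104 counts in cepharanthine libraries and 29, 97 and 34 in control libraries. Control library 2 lay among the cepharanthine libraries. Its log2 fold change was 0.86 ± 0.41 (SE) with an edgeR adjusted p of 0.158, and 1.5 with 0.0137 without control library 2. HOXC12 had 0, 4 and 0 counts in cepharanthine libraries and 0, 4 and 6 in control libraries and was not tested.

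The HOXD cluster, on chromosome 2 from 176092721 to 176190907, had 0 genes called in either direction among 4 tested, against 27.9% of all genes tested. Its median log2 fold change was 0.34. At an unadjusted edgeR p under 0.05 it had 1, HOXD8, and DESeq2 called 0. Its summed level was 13.8, 15.9 and 14.5 CPM in cepharanthine libraries and 12.6, 14.2 and 13.3 CPM in control libraries, which overlapped. HOXD8 had 3.81, 4.15 and 3.49 CPM in cepharanthine libraries, against 2.19, 2.50 and 2.65 CPM in control libraries, without overlap. Its log2 fold change of 0.58 ± 0.20 (SE) had an edgeR adjusted p of 0.0605 and passed in 4 of 17 alternatives. HOXD9 had 31, 31 and 27 counts in cepharanthine libraries and 10, 12 and 21 in control libraries, at 0.88 ± 0.57 (SE) with an edgeR adjusted p of 0.297.

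HOXD3 gave 41.7% of the cluster's CPM and was at -0.18 ± 0.15 (SE), and HOXD4, the highest HOXD gene per length, was at 0.10 ± 0.22. The other 4 HOXD genes were not tested. HOXD10, a posterior gene, had 0, 4 and 20 counts in cepharanthine libraries and 18, 3 and 8 in control libraries. HOXD13, which patterns the digits, had 8, 0 and 11 counts in cepharanthine libraries and 21, 16 and 0 in control libraries. HOXD11 had 0 counts in each cepharanthine library and 8, 0 and 3 in control libraries, 8 of these 11 counts in control library 1, with an adjusted p of 0.252 in the unfiltered edgeR fit. HOXD1 had 0 counts in each cepharanthine library and 0, 0 and 2 in control libraries.

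**Figure D2:**
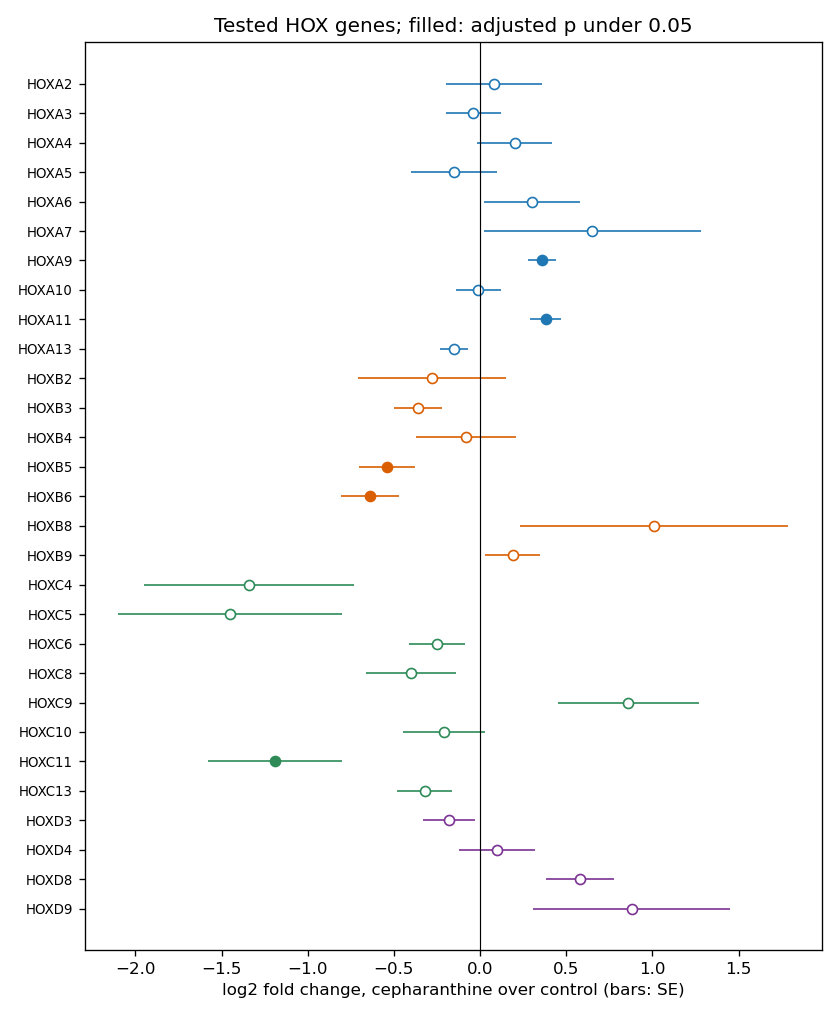
Log2 fold change of cepharanthine over control (horizontal axis) with its SE for tested HOX genes, ordered by cluster and position down the page and coloured by cluster, filled where the edgeR adjusted p was under 0.05. HOXA9 (0.36) and HOXA11 (0.38) are filled to the right of 0 with short bars, HOXB5, HOXB6 and HOXC11 are filled to the left, and HOXC4, HOXC5 and HOXB8, open and farthest from 0 on either side, have long bars.

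By position, the 5 calls lay among central and posterior genes. Of the anterior genes, positions 1 to 3, 6 were tested and 0 were called by edgeR, while 1, HOXB3, had an unadjusted edgeR p under 0.05 and was called by DESeq2. Of the central genes, positions 4 to 8, 14 were tested, with 0 higher, although HOXD8 had an unadjusted edgeR p under 0.05, and 2 lower. Of the posterior genes, positions 9 to 13, 10 were tested, with 2 higher and 1 lower. The shares called were 0% of anterior, 14.3% of central and 30% of posterior genes tested, against 27.9% of all genes tested. With only 6 anterior genes tested, the lack of calls there cannot show a difference from that share of all genes. The medians of the log2 fold changes were -0.11, -0.12 and 0.09 in the same order. No difference between positions or between clusters was tested.

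Each cluster also makes RNAs without a protein, many of them antisense to a HOX gene. Of 18 such RNAs listed, 15 were tested, with 0 higher and 4 lower with cepharanthine (26.7% called, against 27.9% of all genes) and a median log2 fold change of 0.09. On the higher side 0 had an unadjusted edgeR p under 0.05 and 0 were called by DESeq2. HOTAIR, a HOXC RNA known for its ties to Polycomb complexes, had 1.55, 1.51 and 1.64 CPM in cepharanthine libraries, against 3.25, 2.50 and 3.01 CPM in control libraries. The groups did not overlap, and its log2 fold change was -0.97 ± 0.23 (SE) with an edgeR adjusted p of 0.0117, called in 13 of 14 alternatives. HOTTIP, an RNA of the posterior end of HOXA known to bind WDR5, had 5.57, 4.96 and 3.88 CPM in cepharanthine libraries, against 7.90, 6.72 and 10.0 CPM in control libraries. HOTTIP was at a log2 fold change of -0.84 ± 0.21 (SE) with an edgeR adjusted p of 0.0149, and the call was lost without cepharanthine library 3 (-0.70, adjusted p 0.0576) or control library 3 (-0.66, adjusted p 0.0714).

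HOXA11-AS had 13.6, 14.2 and 12.6 CPM in cepharanthine libraries, against 18.4, 16.3 and 18.4 CPM in control libraries, a log2 fold change of -0.46 ± 0.12 (SE) with an edgeR adjusted p of 0.0184. It was lost without cepharanthine library 1 or 3 or control library 1 or 3, with log2 fold changes of -0.41 to -0.47 and adjusted p of 0.0539 to 0.073. HOXA-AS2 had 2.47, 2.60 and 2.45 CPM in cepharanthine libraries, against 3.25, 5.81 and 3.94 CPM in control libraries, at -0.85 ± 0.24 (SE) with an edgeR adjusted p of 0.0228. It was lost without any 1 of the 3 cepharanthine libraries or without control library 2, with log2 fold changes of -0.61 to -0.88 and adjusted p of 0.0544 to 0.0813. Neither RNA's groups overlapped. Of the 11 others tested, HOTAIRM1, at the anterior end of HOXA, was at 0.09 ± 0.09 (SE), HOXB-AS3 at -0.45 ± 0.22, HOXD-AS2 at 0.77 ± 0.37, HAGLR at 0.39 ± 0.27 and HOXC-AS1 at 1.10 ± 0.63. HOXB-AS1 was at 0.47 ± 0.46 (SE), HOXA-AS3 at 0.09 ± 0.42, HOXA10-AS at -0.20 ± 0.26, HOXB-AS2 at -0.30 ± 0.64, HOXC-AS2 at 0.20 ± 0.42 and HOXC13-AS at 0.11 ± 0.59.

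Neighbours on opposite strands did not all move the same way. HOXA11 was higher and HOXA11-AS lower with cepharanthine, although their RefSeq starts, at 27185232 and 27185408, lie 176 bases apart and both fall in the HOXA11 window printed above. The rows of this pair share 726 bases. The counted HOXA11-AS row begins at 27184507, before that RefSeq start, so its counts may hold transcripts that start elsewhere. HOXC11 and HOTAIR, which share 1831 bases, were both lower. HOTTIP was lower while HOXA13, with a RefSeq start 330 bases from that of HOTTIP, did not pass the test. The HOTTIP row also begins before its RefSeq start, at 27198575 against 27200421. HOXB5 and HOXB6 were lower and lie within the row of HOXB-AS3, which did not pass. Of the 36 HOX genes, 32 overlapped another row, and of the 4 that did not, HOXA2 and HOXA7 were tested and 0 were called. Whether counting used strand is not given in the sources used here, so reads of a gene and of its antisense partner cannot be told apart.

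**Figure D3:**
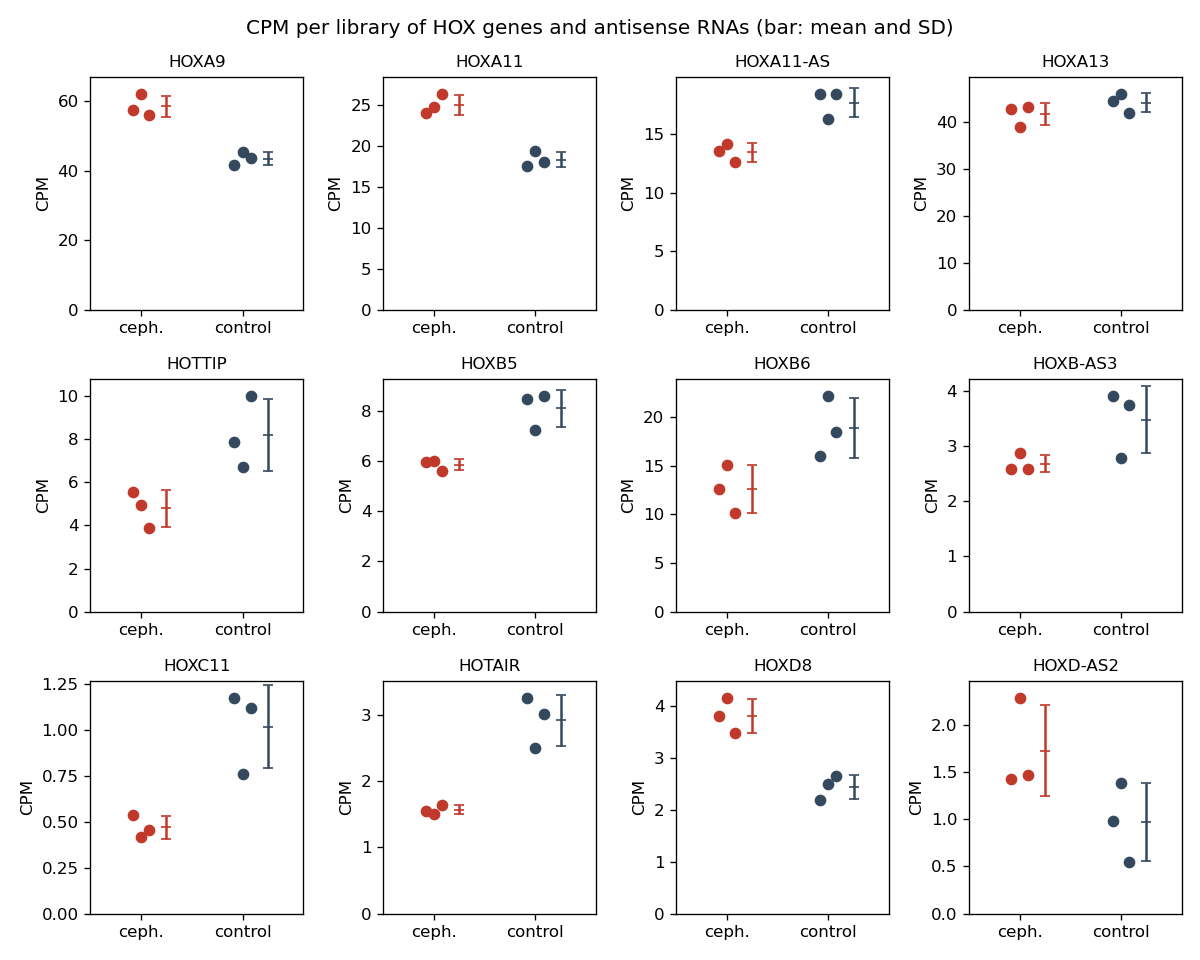
CPM per library (vertical axis, linear from 0) of 7 HOX genes and 5 antisense or neighbouring RNAs, 3 cepharanthine (ceph.) and 3 control points in each panel, with bars at the mean and SD. The groups separate upward for HOXA9 and HOXA11 and downward for HOXA11-AS, HOTTIP, HOXB5, HOXB6, HOXC11 and HOTAIR, overlap for HOXA13 and HOXB-AS3, and separate without passing the test for HOXD8 and HOXD-AS2.

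The cofactors and regulators of HOX genes were read from lists that were chosen with earlier results of these data known. Of 9 cofactors, 8 were tested, with 0 higher and 2 lower (25% called, against 27.9% of all genes) and a median log2 fold change of 0.14. On the higher side, 2 had an unadjusted edgeR p under 0.05 and DESeq2 called 1. PBX2, a partner of HOX proteins on DNA, averaged 87.8 ± 4.91 CPM in cepharanthine libraries and 101 ± 2.05 CPM in control libraries (SD, n = 3 each), at -0.27 ± 0.08 (SE) with an edgeR adjusted p of 0.0241. Its call was lost without cepharanthine library 2 or 3 or control library 1 or 3, with log2 fold changes of -0.22 to -0.29 and adjusted p of 0.061 to 0.0894. PBX3 was at 0.46 ± 0.16 (SE, edgeR adjusted p of 0.053) and MEIS2 at 0.30 ± 0.12 (0.0917), neither past the threshold.

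Of 29 Polycomb genes, all tested, 9 were higher and 5 lower, 48.3% in all against 27.9% of all genes tested, with a median log2 fold change of 0.12. CBX2, a reader of H3K27 methylation in Polycomb complex PRC1, averaged 32.6 ± 0.805 CPM in cepharanthine libraries and 50.7 ± 2.33 CPM in control libraries (SD, n = 3 each), at -0.70 ± 0.07 (SE) with an edgeR adjusted p of 1.27e-04. BMI1, a PRC1 ring-finger protein, averaged 98.7 ± 3.73 CPM in cepharanthine libraries and 58.8 ± 7.80 CPM in control libraries, at 0.68 ± 0.09 (SE) with an edgeR adjusted p of 3.43e-04. Members of the same complex family moved in both directions. PCGF5, a paralogue of BMI1, was at 0.97 ± 0.13 (SE) and CBX6, a paralogue of CBX2, at -0.47 ± 0.08, with edgeR adjusted p of 4.86e-04 and 0.00144.

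Of 23 trithorax, COMPASS and H3K27 demethylase genes, all tested, 3 were higher and 7 lower, 43.5% in all against 27.9% of all genes tested, with a median log2 fold change of -0.11. ASXL1, a cofactor of H2A deubiquitination, was at -0.36 ± 0.07 (SE), KMT2D, an H3K4 methyltransferase of enhancers, at -0.50 ± 0.10, and MEN1, which tethers KMT2A complexes to HOX promoters, at -0.53 ± 0.12, with edgeR adjusted p of 0.0049, 0.00581 and 0.00959. KMT2A averaged 298 ± 10.4 CPM in cepharanthine libraries and 350.0 ± 15.7 CPM in control libraries (SD, n = 3 each), at -0.30 ± 0.08 (SE) with an edgeR adjusted p of 0.0149. The KMT2A call was lost without cepharanthine library 2 or control library 1 or 3, with log2 fold changes of -0.26 to -0.29 and adjusted p of 0.0532 to 0.0603.

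Retinoic acid and CDX factors act upstream of HOX genes in the embryo. Of 14 tested retinoic acid receptors and genes of its metabolism and transport, 1 was higher and 3 were lower (28.6% called, against 27.9% of all genes), and the CDX1 and CDX2 rows had too few counts to be tested. Their median log2 fold change was -0.09. STRA6, a receptor for vitamin A uptake, averaged 0.971 ± 0.451 CPM in cepharanthine libraries and 5.86 ± 0.736 CPM in control libraries (SD, n = 3 each), at -2.66 ± 0.34 (SE) with an edgeR adjusted p of 3.75e-04. RDH10, which oxidises retinol, was at -0.33 ± 0.08 (SE, edgeR adjusted p of 0.0116), and its call was lost without cepharanthine library 1 (-0.31) or control library 3 (-0.26). CRABP1, a retinoic acid binding protein, was at -1.33 ± 0.37 (SE, edgeR adjusted p of 0.0243), lost without cepharanthine library 2 or 3 or control library 1 or 3 (-1.13 to -1.38). RXRB, a retinoid receptor, was at 0.24 ± 0.08 (SE, edgeR adjusted p of 0.0462) and was lost without any 1 of the 6 libraries (0.18 to 0.29).

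Of 18 genes listed as flanking the clusters, 17 were tested, with 9 higher and 2 lower (64.7% called, against 27.9% of all genes) and a median log2 fold change of 0.44. On the HOXA side 4 of 5 were higher. SNX10, a sorting nexin 719 kb from the cluster, had 7.76, 7.02 and 7.88 CPM in cepharanthine libraries, against 2.58, 2.03 and 2.94 CPM in control libraries, at 1.52 ± 0.20 (SE) with an edgeR adjusted p of 4.42e-04. SKAP2, an adaptor protein 228 kb away, was at 0.72 ± 0.10 (SE, edgeR adjusted p of 4.71e-04), and HIBADH, an enzyme of valine breakdown 325 kb away, at 0.61 ± 0.09 (9.38e-04). On the HOXC side 1 was higher and 2 were lower, among them HNRNPA1, a splicing factor 225 kb away, at -0.49 ± 0.07 (SE, edgeR adjusted p of 9.29e-04). On the HOXB side 2 of 4 were higher and 0 lower, and on the HOXD side 2 of 3 tested were higher and 0 lower.

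**Figure D4:**
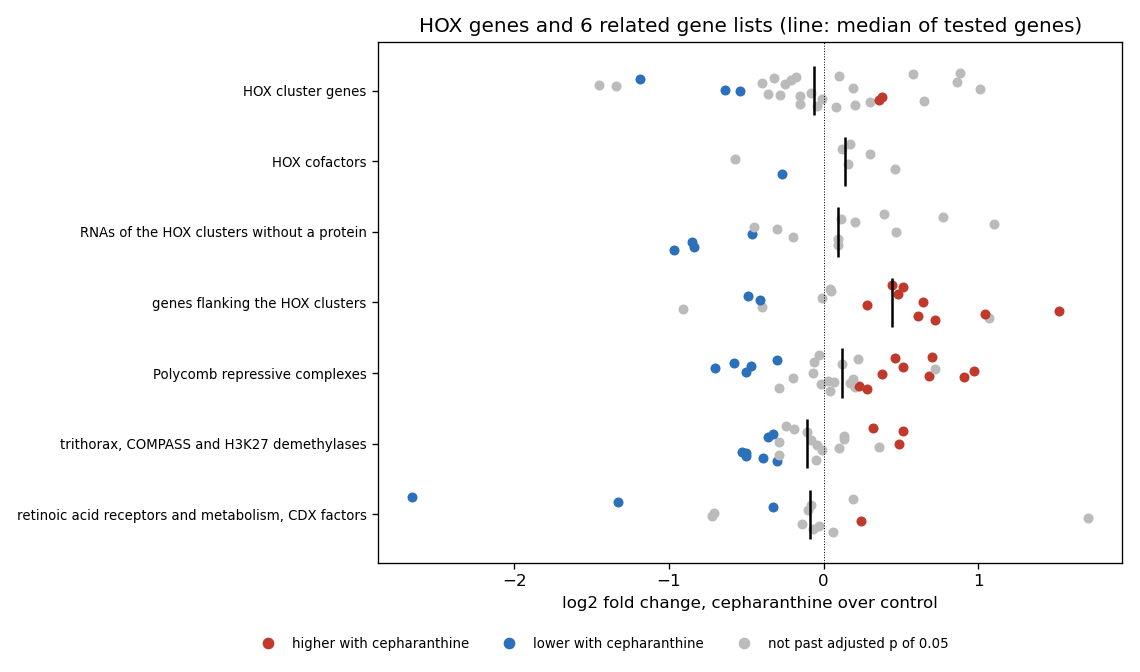
Log2 fold change of cepharanthine over control (horizontal axis) for tested members of the HOX genes and 6 related gene lists (rows), 1 point per gene shown, red where higher and blue where lower with an edgeR adjusted p under 0.05, grey otherwise, with a black line at the median of all tested members. The HOX genes, with a median of -0.06, have 5 coloured points, and the flanking genes, with a median of 0.44, have 11.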

How the data were processed

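The authors deposited raw counts and FPKM per gene and library, per the file headers. For the aligner, the counter, its use of strand, the annotation and the length behind the FPKM, nothing is given in the sources used here. Per the labels' protocols, each SMARTER mRNA-Seq library took 1.2 µg of TRIzol-extracted RNA. Control columns differ in name from the labels, and group and number matched them. Chromosome and strand were those of GENCODE 29 on GRCh38 for 36 of 36 HOX genes.

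Counts were filtered with filterByExpr (minimum count 10), given TMM factors and compared, 3 libraries against 3, by the two-sided quasi-likelihood test of edgeR 4.0.16 (R 4.3.3). Calls had a Benjamini-Hochberg adjusted p under 0.05 among the genes that passed the filter. Each SE is the absolute log2 fold change over the square root of F. CPM uses total counts. A count of 0 allows up to 3 counts, for counting error only. Lists of related genes name their members with the 4 smallest adjusted p, and tested HOX genes and cluster RNAs are named. Some genes that this rule gave are not reported here. KLK2, KLK3, CDX4 and CD3E were not analysed here. Alternatives were RLE, upper-quartile and no factors, DESeq2 1.42.0, other filters, limma 3.58.1 on log2(FPKM + 1), log2(FPKM + 0.1) and log2(TPM + 1) of genes with a mean of at least 1 FPKM, a replicate block, and each library left out. Fits were checked on simulated counts, where the share of false calls was above 0.05 and most of the smallest planted changes were missed. No 2 libraries agreed within sampling noise. The members and lists were chosen with earlier results of these data known.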

Additional observations from a re-analysis of the deposited data

How the results depend on the processing

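HOXA9 and HOXA11 kept their call in all 17 alternatives each. The 2 HOX genes called higher became 4 with limma on log2(TPM + 1), which tested 19 HOX genes in place of 30 and left out HOXC11. The 3 called lower became 1 with limma on log2(FPKM + 1) without a filter and 0 with log2(TPM + 1), and ranged from 1 to 3 with 1 library left out. Restricting to the 2 tested genes that overlap no other row left 0 called higher and 0 lower, which the restriction itself fixed, as neither was called among all genes. Without a filter in edgeR the lower calls were 2, HOXB6 and HOXB7. Over the related lists, 106 genes were tested, with 22 called higher and 23 lower, where 14.7% of all genes tested were higher and 13.2% lower. The higher calls became 14 with limma on log2(FPKM + 1) without a filter. The lower calls became 8 there, 15 with the filter, 14 with log2(FPKM + 0.1) and 3 with log2(TPM + 1), and ranged from 13 to 25 with 1 library left out. The limma fits tested 84 list genes with the filter and 116 without. With log2(TPM + 1) only 983 of 13451 genes were lower, so the 3 there cannot be read as a result about the lists. The ratio of the summed HOXA level was 1.10 with TMM-scaled sizes. The causes were not tested.

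No pairing by replicate number showed in the values. Deviations of same-numbered libraries correlated at -0.07 to 0.00359, and 0 of 3 cepharanthine libraries correlated best with its own number. With 3 libraries per group, this cannot tell whether same-numbered libraries were set up together. With a replicate block, 1 HOX gene was called lower (HOXB6), with HOXB5 at an edgeR adjusted p of 0.0669 and HOXC11 at 0.0892. The calls of HOXA11-AS (0.0554), PBX2 (0.0662) and RXRB (0.114) were lost as well, and 2544 genes were called higher and 2294 lower overall. HOXA-AS3 was then at -0.02 and HOXC13-AS at -0.09.

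The other reversed values were of genes that were not called in any of these fits. With library size alone HOXA3 was at 0.03 and HOXA10 at 0.05. With limma on log2(FPKM + 1) HOXA3 was at 0.01 and HOXA10 at 0.03, with and without the filter, and with log2(FPKM + 0.1) they were at 0.02 and 0.04. With log2(TPM + 1) HOXA3 was at 0.18, HOXA5 at 0.04, HOXA10 at 0.21, HOXA13 at 0.09, HOXD3 at 0.05 and HOXA10-AS at 0.06. With 1 library left out, log2 fold changes ranged from -0.19 to 0.31 for HOXA2, -0.13 to 0.08 for HOXA3, -0.33 to 0.08 for HOXA5, -0.08 to 0.06 for HOXA10, -0.31 to 0.11 for HOXB4 and -0.10 to 0.22 for HOXD4. Among the RNAs they ranged from -0.30 to 0.46 for HOXA-AS3, -0.42 to 0.04 for HOXA10-AS, -0.60 to 0.38 for HOXB-AS2, -0.17 to 0.46 for HOXC-AS2 and -0.34 to 0.59 for HOXC13-AS. A count of 0 in 1 library allows 0.044 to 0.0568 CPM, so genes such as HOXB7 and HOXD11 are limited by depth.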

Other observations

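The table also held rows for the microRNA genes MIR10A, MIR10B, MIR196A1, MIR196B and MIR615, which lie within the HOX clusters. Each had 0 to 5 counts in every library, and none was tested. Libraries of this kind were not made from small RNA, so these counts do not measure the mature microRNAs.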
